A study of Homo sapiens with 24 samples.

Results

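The 10 genes described here encode the SAR1 GTPases (*SAR1A* and *SAR1B*) and the subunits of the COPII coat (*SEC23A*, *SEC23B*, *SEC24A*, *SEC24B*, *SEC24C*, *SEC24D*, *SEC13* and *SEC31A*), out of 18395 genes with a probe set of a single symbol. Each was read from the probe set that carries its symbol and no other, and each has 1 such probe set. The group was proposed because *SAR1B* differed between FMR4 siRNA and CTRL siRNA, that is, its members were chosen by the measured siRNA values of *SAR1B*, whose levels in the siRNA arrays are therefore given as a description, with no test. The other 9 genes belong to the group by their function and were tested in every comparison. They too were chosen with earlier results of these data known.

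Expression was measured on 24 Affymetrix arrays in HEK293T cells, a human embryonic kidney line that carries the SV40 large T antigen, at 6 and 24 h after transfection. Cells received 40 nM of an siRNA against *FMR4*, a long noncoding RNA transcribed antisense from the *FMR1* locus, or the same dose of a control siRNA (FMR4 siRNA and CTRL siRNA), with Lipofectamine RNAiMAX. In the other arm they received 0.5 μg of pcDNA3.1 carrying *FMR4* or of the empty vector (FMR4 pcDNA3.1 and CTRL pcDNA3.1), with Lipofectamine 2000CD. Each of the 8 conditions has 3 arrays, each a biological replicate pooled from 3 technical ones per the labels, and p-values measure the spread between those arrays. The study asked whether *FMR4* affects genes away from its own locus, so the comparisons are knockdown and overexpression against their controls at each time. Differences between times and between the 2 controls are also given. No probe set is named for *FMR4*, so the extent of its knockdown or overexpression was not read from these arrays. A single siRNA sequence was used for the knockdown, and siRNA and plasmid differ in nucleic acid, dose and reagent, which cannot be told apart.

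Values are log2 expression after background subtraction and GC-RMA normalization by the authors. Array medians lay between 7.43 and 7.53. A difference of 1 is a 2-fold change. Differences were tested with limma over all 24 arrays, with Benjamini-Hochberg adjustment over 21214 probe sets, and a gene is said to rise or fall only at an adjusted p under 0.05. Of the 6 genes checked as typical of HEK293T cells, all lay above 6.00, the upper quartile of 429 olfactory receptor and keratin-associated protein genes that these cells should not express. Of 7 measured markers of other cell types, *PTPRC*, *ALB* and *PECAM1* lay below it, at means of 4.35, 4.81 and 5.65, and *CD3E*, *KRT5*, *GFAP* and *COL1A1* above it, at 6.16, 6.09, 7.33 and 8.31. None of the 7 changed by limma in any of the 13 comparisons. Of the HEK293T genes, *NEFM* rose by 0.76 with FMR4 siRNA at 24 h (adjusted p = 0.000385 by limma), 3 of the 6 (*KRT8*, *NEFL* and *NEFM*) were lower at 24 h than at 6 h with CTRL siRNA, 2 (*KRT8* and *NEFL*) with FMR4 siRNA and 1 (*NEFM*) with each plasmid. The part of these differences in the results was not tested.

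The COPII coat shapes the vesicles that carry newly made proteins and lipids from the endoplasmic reticulum (ER) toward the Golgi. SAR1 starts assembly: in its GTP-bound form it inserts into the ER membrane and recruits the inner coat of SEC23 and SEC24, and the outer cage of SEC13 and SEC31 follows. SEC23 stimulates GTP hydrolysis by SAR1, and SEC24 binds cargo, with its 4 paralogs preferring different sorting signals. Inherited loss of SAR1B causes chylomicron retention disease, a failure of enterocytes to secrete large lipoproteins.

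All 10 genes were well above the level of silent genes on every array, the lowest single value being 9.26 for *SEC24C*. The genes differed in how far their 8 condition means spread. *SAR1B* spanned 1.18 on the log2 scale, *SEC24D* 0.81 and *SEC24A* 0.48, and the other 7 spanned 0.23 (*SEC13*) to 0.38 (*SAR1A*). A plot of every array by condition shows this spread.

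**Figure D1:**
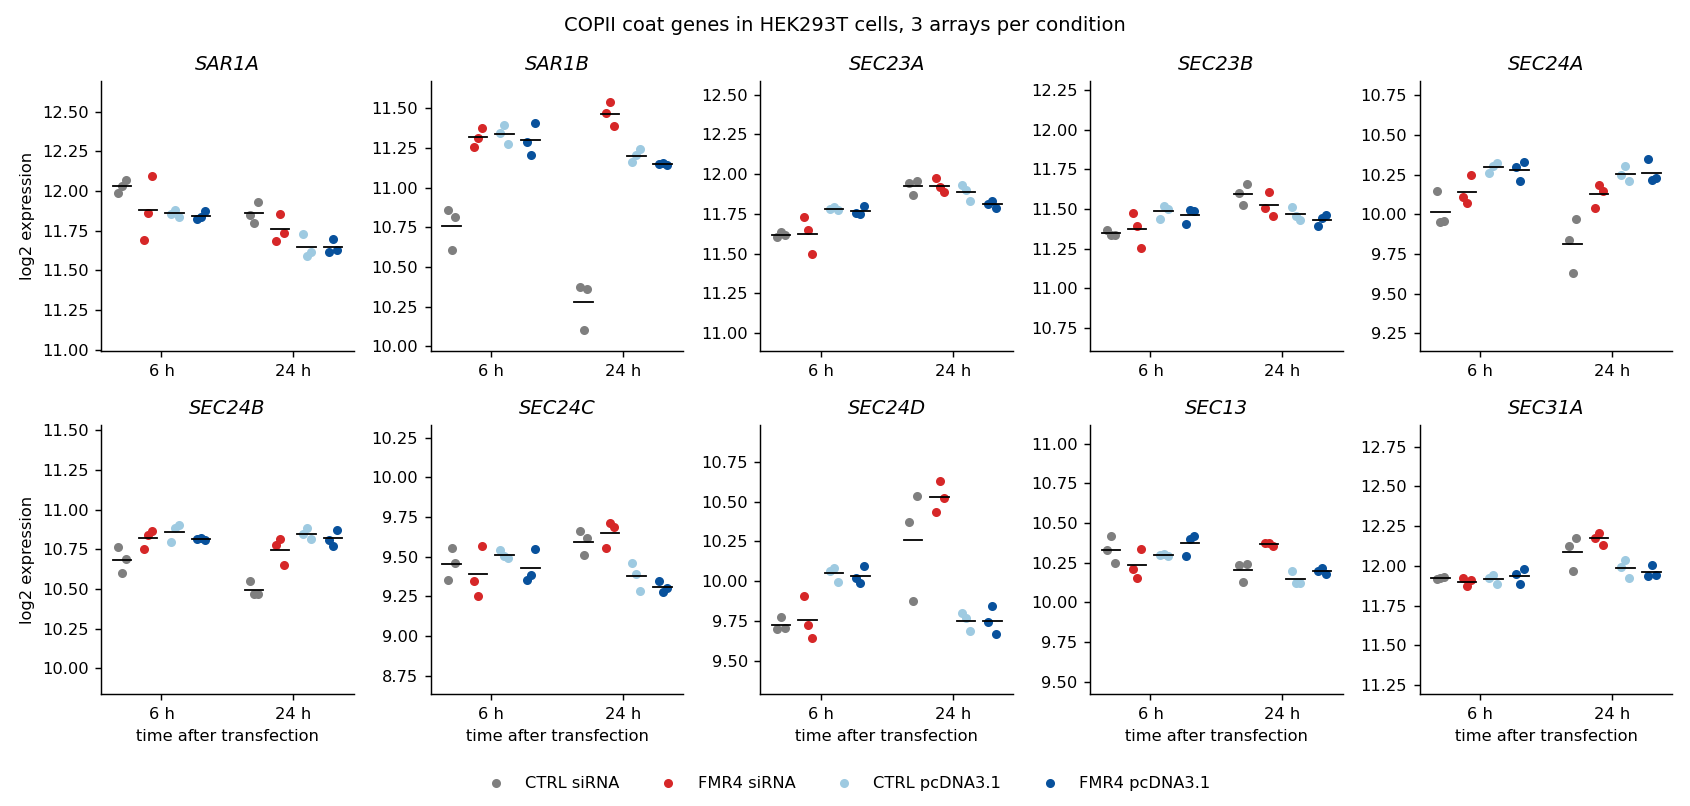
Deposited log2 expression of the 10 genes (vertical axis) in the 8 conditions, with 1 point per array and a bar at the mean of 3 arrays. *SAR1B* has its lowest arrays with CTRL siRNA, at 10.11 to 10.38 at 24 h, while the 24 h siRNA arrays of *SEC24D* reach up to 10.63.

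*SAR1B*, the GTPase of the group most tied to lipoprotein export, was lower with CTRL siRNA than in any other condition. With CTRL siRNA its arrays read 10.86, 10.61 and 10.82 at 6 h, and 10.38, 10.11 and 10.36 at 24 h. With FMR4 siRNA they read 11.26, 11.31 and 11.38 at 6 h, and 11.47, 11.54 and 11.39 at 24 h. The siRNA groups did not overlap at either time. The difference, FMR4 siRNA minus CTRL siRNA, was 0.56 ± 0.075 (SE, n = 3) at 6 h, or 1.47-fold, and 1.18 ± 0.075 (SE, n = 3) at 24 h, or 2.27-fold. Leaving out any 1 array gave 0.48 to 0.61 at 6 h and 1.09 to 1.23 at 24 h. In a bulk sample, fewer cells of a kind and less RNA per cell cannot be told apart.

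In plasmid-transfected cells *SAR1B* lay above every CTRL siRNA array, between 11.14 and 11.40. CTRL pcDNA3.1 arrays read 11.34, 11.39 and 11.27 at 6 h, and 11.16, 11.20 and 11.24 at 24 h. FMR4 pcDNA3.1 arrays read 11.28, 11.21 and 11.40 at 6 h, and 11.15, 11.16 and 11.14 at 24 h. The overexpression effect was −0.04 (adjusted p = 1.0 by limma) at 6 h and −0.05 ± 0.075 (SE; adjusted p = 0.999 by limma) at 24 h, so neither passed the test. The change from 6 to 24 h was −0.14 with CTRL pcDNA3.1 and −0.15 with FMR4 pcDNA3.1 (adjusted p = 0.317 and 0.27 by limma), also not past the threshold.

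Ordered by mean, *SAR1B* stood highest with FMR4 siRNA at 24 h, at 11.46 ± 0.08 (SD, n = 3). Then came CTRL pcDNA3.1 at 6 h (11.34 ± 0.06), FMR4 siRNA at 6 h (11.32 ± 0.06), FMR4 pcDNA3.1 at 6 h (11.30 ± 0.10) and CTRL pcDNA3.1 at 24 h (11.20 ± 0.04). Each of these overlapped the next in its arrays. FMR4 pcDNA3.1 at 24 h (11.15 ± 0.01), CTRL siRNA at 6 h (10.76 ± 0.13) and CTRL siRNA at 24 h (10.28 ± 0.15) each lay apart from the condition above. For FMR4 pcDNA3.1 at 24 h the gap was very small, its highest array at 11.1571 and the lowest of CTRL pcDNA3.1 at 11.1579. In that comparison 12% of all genes had arrays that did not overlap. Between the 2 controls, CTRL pcDNA3.1 exceeded CTRL siRNA by 0.58 at 6 h and by 0.92 at 24 h, or 1.89-fold. The knockdown and the control comparison use the same CTRL siRNA arrays and are not independent.

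*SAR1A*, the other SAR1 GTPase, did not pass the test with either treatment. With CTRL siRNA its 24 h arrays read 11.85, 11.80 and 11.93, and with FMR4 siRNA 11.69, 11.86 and 11.74. The groups overlapped, and the difference was −0.10 ± 0.074 (SE; adjusted p = 0.599 by limma). At 6 h the FMR4 siRNA arrays spread from 11.69 to 12.09 around the CTRL siRNA arrays at 11.99, 12.03 and 12.07. In order of mean, each condition of *SAR1A* overlapped the next in its arrays, but some conditions farther apart did not overlap. CTRL pcDNA3.1 minus CTRL siRNA was −0.17 at 6 h and −0.21 at 24 h (adjusted p = 0.171 and 0.110 by limma). From 6 to 24 h it differed by −0.21 with CTRL pcDNA3.1 and −0.20 with FMR4 pcDNA3.1 (adjusted p = 0.0894 and 0.117 by limma). The arrays were apart in each of these comparisons, and none passed the test. Between the controls, 31.1% of all genes at 6 h and 26.1% at 24 h had arrays apart. Over time the shares were 30.3% with CTRL pcDNA3.1 and 33.4% with FMR4 pcDNA3.1. The proteins of *SAR1A* and *SAR1B* are close relatives, and whether either probe set takes signal from the other gene was not tested.

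At 24 h of knockdown, *SEC24A* and *SEC24B*, paralogous cargo-binding subunits of the inner coat, rose against CTRL siRNA. For both genes CTRL siRNA at 24 h had the lowest of the 8 condition means. Their FMR4 siRNA means at 24 h ranked 6 of 8, below FMR4 siRNA at 6 h and every plasmid condition. *SEC24A* read 9.84, 9.63 and 9.97 with CTRL siRNA, and 10.04, 10.19 and 10.15 with FMR4 siRNA. The groups did not overlap, and the rise was 0.31 ± 0.076 (SE, n = 3), or 1.24-fold (adjusted p = 0.0131 by limma). *SEC24B* read 10.55, 10.47 and 10.47 with CTRL siRNA, and 10.77, 10.81 and 10.65 with FMR4 siRNA. These groups were also apart, with a rise of 0.25 ± 0.057 (SE, n = 3), or 1.19-fold (adjusted p = 0.00757 by limma).

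These were 2 of the 9 tested members, against 5.89% of all genes called in this comparison (632 higher and 451 lower). The median difference over the 9 was 0.08, against 0.0039 over all genes, and none fell. Both calls depended on single arrays. Without the second CTRL siRNA array, *SEC24A* differed by 0.22 (adjusted p = 0.134 by limma), and without the second FMR4 siRNA array the adjusted p was 0.0751 for *SEC24A* and 0.0549 for *SEC24B*.

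The other SEC24 paralogs did not pass the test at 24 h of knockdown. *SEC24D* read 10.37, 9.88 and 10.53 with CTRL siRNA, and 10.44, 10.63 and 10.53 with FMR4 siRNA. The second control array lay well below the others, the groups overlapped, and the difference was 0.27 ± 0.107 (SE; adjusted p = 0.190 by limma). That array was the lowest of its group for every member, *SAR1B* included. The second FMR4 siRNA array was the highest of its group for every member but *SEC23A*. The members' differences at 24 h share these arrays and are not independent of one another. For *SEC24C* the difference was 0.05 (adjusted p = 0.827 by limma).

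Among the partners of SEC24, *SEC23A* and *SEC23B*, which activate the SAR1 GTPase, differed by 0.0042 and −0.07 (adjusted p = 0.987 and 0.669 by limma). In the outer cage, *SEC13* read 10.24, 10.13 and 10.24 with CTRL siRNA and 10.37, 10.38 and 10.36 with FMR4 siRNA. Its arrays did not overlap, but the difference of 0.17 ± 0.057 (SE) did not pass the test (adjusted p = 0.103 by limma). SEC13 also has a place in the nuclear pore. *SEC31A*, its cage partner, differed by 0.08 (adjusted p = 0.514 by limma). Of the 9 tested members, 3 (*SEC24A*, *SEC24B* and *SEC13*) had arrays that did not overlap between the groups, against 22.2% of all genes.

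**Figure D2:**
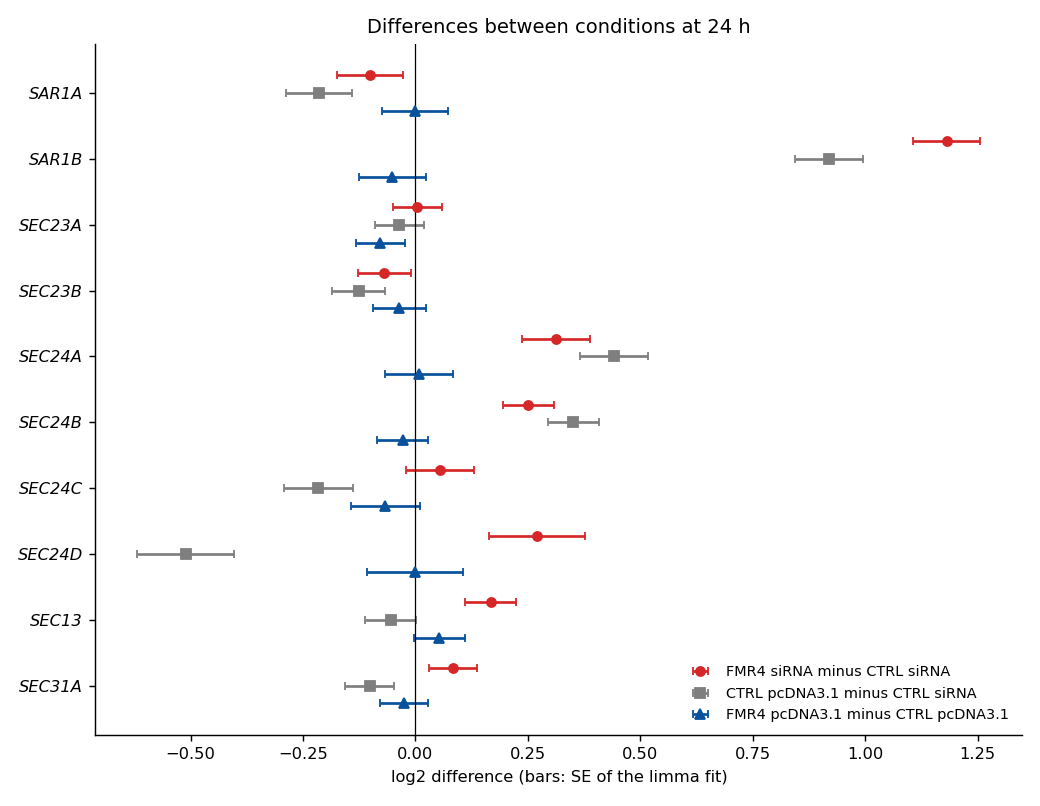
Log2 differences at 24 h for the 10 genes (horizontal axis), with standard errors as bars, for knockdown, overexpression and the comparison of the 2 controls. *SAR1B* stands at 1.18 in the knockdown and −0.05 in the overexpression, and *SEC24A* and *SEC24B* lie above 0 in the knockdown.

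At 6 h of knockdown none of the 9 tested members passed the test, against 0.0598% of all genes, and 1 had an unadjusted p under 0.05, against 3.9% of all genes. The differences ran from −0.15 to 0.14, and the arrays of all 9 overlapped between the groups, while 5.6% of all genes had arrays that did not. With FMR4 pcDNA3.1 none of the 10 members passed the test at 24 h or at 6 h, and none had an unadjusted p under 0.05. The same comparisons called 0% of all genes at 24 h and 0% at 6 h by limma, with 602 and 372 genes at an unadjusted p under 0.05. At 24 h the members' differences lay between −0.08 and 0.05, and at 6 h between −0.08 and 0.08.

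Whether an effect differed between times or between arms was tested directly. The knockdown effect at 24 h minus that at 6 h passed for none of the 9 members, against 1.19% of all genes, with 1 at an unadjusted p under 0.05, against 11.3% of all genes. The largest such difference among the tested members was 0.26 ± 0.081 (SE) for *SEC13* (adjusted p = 0.144 by limma). For *SAR1B* it was 0.62 ± 0.106 (SE), given with no test. The overexpression effect minus the knockdown effect at 24 h passed for none of the 9, against 2.13% of all genes, with 2 at an unadjusted p under 0.05, against 11.9% of all genes. It was −0.30 for *SEC24A* and −0.28 for *SEC24B* (adjusted p = 0.193 and 0.0833 by limma), so the rises of these genes were not shown to differ from their change with plasmid.

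The control comparison at 24 h placed *SEC24A* and *SEC24B* beside *SAR1B* in direction and *SEC24D* opposite. At 24 h, CTRL pcDNA3.1 arrays of *SEC24A* read 10.25, 10.30 and 10.21, all above those with CTRL siRNA, a difference of 0.44, or 1.36-fold (adjusted p = 0.00106 by limma). *SEC24B* read 10.85, 10.88 and 10.81, higher than CTRL siRNA by 0.35 (adjusted p = 0.000545 by limma). *SEC24D* read 9.80, 9.77 and 9.69, all below CTRL siRNA, with a difference of −0.51 (adjusted p = 0.0063 by limma).

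These 3 of 9 stood against 4.49% of all genes called, and the arrays of 6 of the 9 did not overlap, against 26.1% of all genes. Without replicate 3 of CTRL siRNA, *SEC24D* differed by −0.37 and was no longer called (adjusted p = 0.0608 by limma). At 6 h only *SEC24A* passed, higher with CTRL pcDNA3.1 by 0.28 (adjusted p = 0.0462 by limma), which was 1 of 9 members against 3.31% of all genes. Without any 1 of the 6 arrays that call was lost, with an adjusted p of up to 0.184 by limma. *SEC24D* was opposite in direction to its difference at 24 h. It was higher with CTRL pcDNA3.1 at 6 h by 0.32 and did not pass the test (adjusted p = 0.0855 by limma).

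Across time, *SEC24D* changed most of the tested members. With CTRL siRNA it read 9.70, 9.77 and 9.71 at 6 h and 10.37, 9.88 and 10.53 at 24 h, a rise of 0.54 (adjusted p = 0.0016 by limma). With FMR4 siRNA it read 9.91, 9.72 and 9.64 at 6 h and 10.44, 10.63 and 10.53 at 24 h, a rise of 0.77, or 1.71-fold (adjusted p = 6.93e-05 by limma). All 24 h siRNA arrays but 1 lay above every 6 h siRNA array of this gene. With plasmid the change was −0.30 with CTRL pcDNA3.1 and −0.28 with FMR4 pcDNA3.1 (adjusted p = 0.105 and 0.125 by limma), past no threshold.

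*SEC23A* rose in both siRNA groups. With CTRL siRNA it read 11.60, 11.64 and 11.62 at 6 h and 11.94, 11.87 and 11.96 at 24 h, and with FMR4 siRNA 11.73, 11.65 and 11.50 and then 11.98, 11.92 and 11.89. The rise was 0.30 in each, with no overlap (adjusted p = 0.000598 and 0.000619 by limma). Arrays did not overlap for 37% of all genes with CTRL siRNA and 22.4% with FMR4 siRNA. *SEC31A* also rose in both, by 0.17 in CTRL siRNA cells and 0.27 in FMR4 siRNA cells (adjusted p = 0.036 and 0.00146 by limma). Fitted to the 6 arrays compared alone, the FMR4 siRNA calls of *SEC23A* and *SEC31A* were lost (adjusted p = 0.141 and 0.132 by limma). *SEC23B* rose with CTRL siRNA, by 0.25 (adjusted p = 0.0053 by limma), and with FMR4 siRNA differed by 0.15 (adjusted p = 0.0864 by limma).

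*SEC24C* rose with FMR4 siRNA, by 0.26 (adjusted p = 0.0226 by limma), and with CTRL siRNA differed by 0.14 (adjusted p = 0.237 by limma). *SEC24B* fell with CTRL siRNA, its difference being −0.19 (adjusted p = 0.0242 by limma), and with FMR4 siRNA differed by −0.07 (adjusted p = 0.423 by limma). Among the genes past no threshold in either siRNA group were *SEC24A*, at −0.20 in CTRL siRNA cells and −0.02 in FMR4 siRNA cells, and *SAR1A*, at −0.17 and −0.12. *SAR1B*, given with no test, differed between 6 and 24 h by −0.48 with CTRL siRNA and by 0.15 with FMR4 siRNA.

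In counts, 5 of the 9 tested members changed with CTRL siRNA (4 higher and 1 lower at 24 h), against 18.6% of all genes, and 4 of 9 with FMR4 siRNA, all higher, against 16.7%. None of the 10 changed with CTRL pcDNA3.1, against 5.76% of all genes, or with FMR4 pcDNA3.1, against 6.33%, with 3 members at an unadjusted p under 0.05 in each by limma, against 20.1% and 20.3% of all genes. Several of these calls depended on single arrays. The calls of *SEC24B* and *SEC31A* with CTRL siRNA were lost in 4 and 5 of the 6 fits that left out 1 array (adjusted p of up to 0.125 and 0.191 by limma). That of *SEC24C* with FMR4 siRNA was lost without replicate 2 at 6 h or replicate 2 or 3 at 24 h (up to 0.123).

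The change over time in the siRNA arrays minus that in the plasmid arrays was tested after these values had been seen. It passed for 5 of 9 members, all higher with siRNA, against 11% of all genes. It also passed for 6 of 12 genes of vesicle tethering and fusion at the Golgi, all higher. Of 14 genes of ER exit sites 4 were higher and 1 lower, and of 14 ER cargo receptors 2 and 2. Of 13 genes of the COPI coat 3 were higher and 1 lower. Of the members, *SEC24D* had the largest difference, 0.95 ± 0.107 (SE; adjusted p = 5.8e-05 by limma). *SEC24C* followed at 0.32, *SEC23A* at 0.23, *SEC23B* at 0.22 and *SEC31A* at 0.17 (adjusted p of 0.0113, 0.0109, 0.0202 and 0.0418 by limma). The call of *SEC31A* was lost in 16 of the 24 fits that left out 1 array (adjusted p of up to 0.0808 by limma), and the other 4 were lost in none. *SEC13*, at 0.16, *SAR1A*, at 0.06, *SEC24A*, at −0.08, and *SEC24B*, at −0.13, did not pass.

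**Figure D3:**
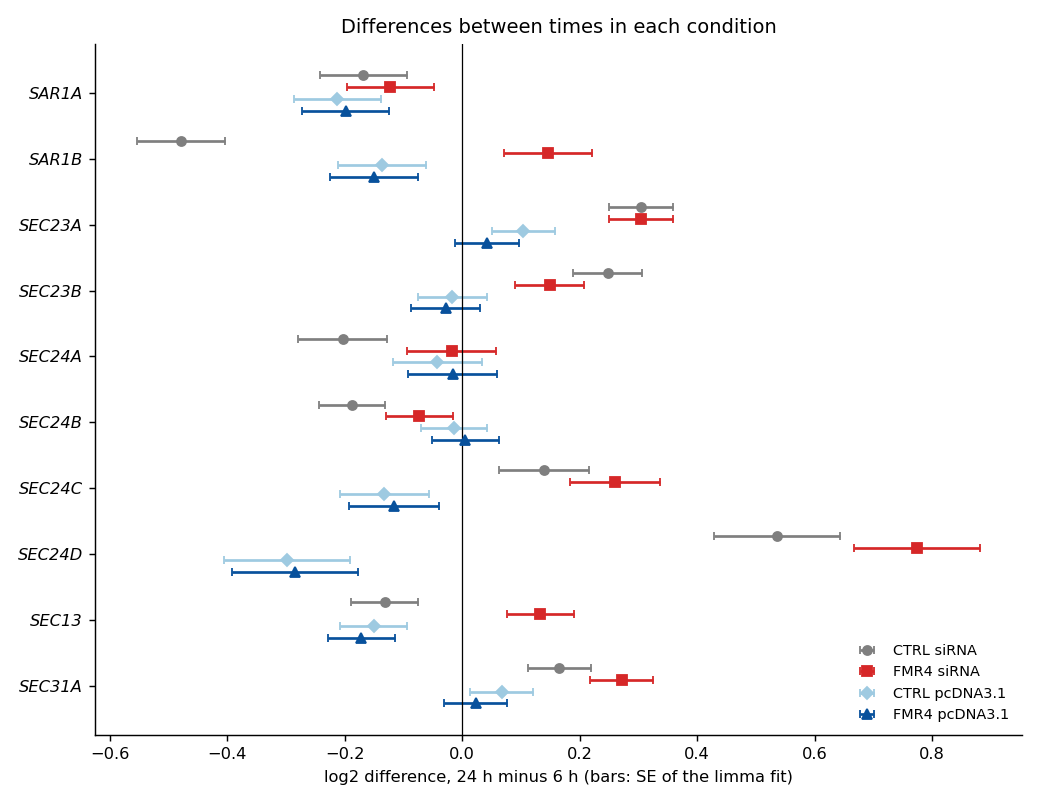
Change from 6 to 24 h on the log2 scale (horizontal axis) for the 10 genes, with standard errors as bars, in each of the 4 transfections. *SEC24D* lies above 0 with both siRNAs (0.54 and 0.77) and below 0 with both plasmids (−0.30 and −0.28).

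Over the 8 condition means, *SEC24B* and *SEC24A* followed *SAR1B* most closely of the members, with Pearson r of 0.89 and 0.85. The other 7 lay between −0.35 (*SAR1A*) and 0.32 (*SEC13*). Among the 1752 genes whose condition means spanned at least 0.5, the 5 most like *SAR1B* were *OSGIN2* (r = 0.985), *CACHD1* (0.975), *SBNO1* (0.974), *LSM14A* (0.972) and *TFAP2C* (0.968). *SEC24A* and *SEC24B*, with spans of 0.48 and 0.36, are not among the genes ranked, and how many genes reach their r was not counted. These are descriptions over 8 means that share the same arrays. They include the siRNA means of *SAR1B* by which the group was chosen, and the CTRL siRNA arrays used for the rises of *SEC24A* and *SEC24B*. The likeness is therefore no separate support for those rises.

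*SAR1B* and *SEC24A* lie next to each other on chromosome 5, and in RefSeq their starts are 16 kb apart, on opposite strands and facing away from each other. With FMR4 siRNA at 24 h, the next genes beyond *SEC24A*, *CAMLG* and *DDX46*, rose by 0.31 ± 0.058 and 0.28 ± 0.081 (SE; adjusted p = 0.00143 and 0.0384 by limma). *CAMLG* encodes a receptor for tail-anchored proteins at the ER, and *DDX46* a splicing helicase. At 6 h of knockdown they differed by 0.00015 and −0.07, and with FMR4 pcDNA3.1 at 24 h by −0.15 and −0.02 (adjusted p of 0.999 to 1.0 by limma). Between the controls at 24 h, which share the CTRL siRNA arrays, *CAMLG* was higher with CTRL pcDNA3.1 by 0.33 (adjusted p = 0.00123 by limma), and *DDX46* differed by 0.07 (adjusted p = 0.755 by limma). *C5orf24*, one place farther, differed by −0.08, and on the other side of *SAR1B* the genes *JADE2*, *CDKN2AIPNL* and *UBE2B* differed by −0.02, −0.06 and 0.07 (adjusted p of 0.669 to 0.951 by limma). The neighbours were looked at after the values of *SAR1B* and *SEC24A* had been seen.

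The 250 bases before the annotated start of the 2 SAR1 genes and of the 2 SEC24 genes that rose are shown, because these genes differed in the knockdown and can be compared with *SAR1A*, which did not pass the test. They come from RefSeq on build GRCh38.p14 and read 5′ to 3′ on the gene's strand. Capitals mark matches on either strand to the NF-Y box CCAAT, the motif CCACG that ATF6 binds in the ER stress element, the core ACGTG of sites for XBP1 and other basic leucine zipper factors, the Sp1 box GGGCGG and the core CGGAAG of ETS family sites.
*SAR1B*, chr5:134632829-134633078, minus strand: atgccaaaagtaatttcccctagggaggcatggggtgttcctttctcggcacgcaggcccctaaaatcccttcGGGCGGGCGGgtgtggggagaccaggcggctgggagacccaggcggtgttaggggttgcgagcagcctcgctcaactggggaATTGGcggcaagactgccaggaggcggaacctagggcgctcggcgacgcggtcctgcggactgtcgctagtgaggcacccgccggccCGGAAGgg
*SAR1A*, chr10:70170515-70170764, minus strand: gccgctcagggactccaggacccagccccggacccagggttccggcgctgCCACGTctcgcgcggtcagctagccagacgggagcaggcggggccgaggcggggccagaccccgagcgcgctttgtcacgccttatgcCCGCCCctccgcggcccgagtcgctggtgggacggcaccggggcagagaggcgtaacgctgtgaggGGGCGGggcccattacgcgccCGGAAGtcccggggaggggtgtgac
*SEC24A*, chr5:134648535-134648784, plus strand: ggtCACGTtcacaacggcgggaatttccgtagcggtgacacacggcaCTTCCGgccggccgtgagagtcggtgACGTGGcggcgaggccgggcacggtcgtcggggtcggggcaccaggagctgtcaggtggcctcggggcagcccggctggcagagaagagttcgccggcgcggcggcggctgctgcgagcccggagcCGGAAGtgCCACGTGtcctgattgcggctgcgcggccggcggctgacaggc
*SEC24B*, chr4:109433565-109433814, plus strand: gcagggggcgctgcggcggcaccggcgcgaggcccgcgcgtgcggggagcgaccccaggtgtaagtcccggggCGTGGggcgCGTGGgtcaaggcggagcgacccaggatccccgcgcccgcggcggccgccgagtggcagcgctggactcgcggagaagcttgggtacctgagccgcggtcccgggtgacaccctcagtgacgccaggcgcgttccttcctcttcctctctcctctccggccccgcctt

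ACGTG and CCACG matches can overlap, and CACGTG, present in the *SEC24A* window, counts as 2 ACGTG matches, 1 on each strand. The *SAR1B* window held 1 CCAAT (as ATTGG), 2 overlapping GGGCGG and 1 CGGAAG, and no ACGTG or CCACG. The *SAR1A* window held 1 ACGTG, 1 CCACG, 2 GGGCGG and 1 CGGAAG. That of *SEC24A* held 4 ACGTG, 2 CCACG and 2 CGGAAG, and that of *SEC24B* only 2 CCACG.

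Of the 9 members with a promoter in the table, 8 held CGGAAG, 7 CCACG, 6 ACGTG, 6 GGGCGG and 2 CCAAT. Among 15842 protein-coding genes with a window of the same length, the shares were 21.7%, 39.1%, 20.8%, 56% and 34.5% in that order. Over all 27305 genes they were 16.8%, 33.3%, 18.7%, 42.3% and 33%. The windows printed are rich in G and C, from 66.4% for *SAR1B* to 75.6% for *SEC24B*, and a match is a description of letters, not a bound site. The table has no entry for *SEC24D*.

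Genes that act with the coat were counted at 24 h of knockdown beside the 5.89% of all genes called in that comparison. Of 14 measured organisers of ER exit sites and COPII regulators, 1 fell and none rose. This was *KLHL12*, an adaptor of the CUL3 ubiquitin ligase that modifies SEC31, at −0.63 ± 0.091 (SE; adjusted p = 6.54e-05 by limma). Of 14 ER cargo receptors, 2 rose and 1 fell. *ERGIC1*, a membrane protein cycling between ER and Golgi, had the largest difference, −0.88 ± 0.061 (SE; adjusted p = 3.49e-09 by limma), while *CNIH4* and *SURF4*, which help load membrane and soluble cargo, rose by 0.34 and 0.28 (adjusted p = 0.00144 and 0.00863 by limma). Between the controls at 24 h, which share the CTRL siRNA arrays, *CNIH4* and *SURF4* were higher with CTRL pcDNA3.1 by 0.29 and 0.28 (adjusted p = 0.0094 and 0.0139 by limma).

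Of 12 genes of tethering and fusion at the Golgi, *BET1*, a SNARE of ER-derived vesicles, rose by 0.38 (adjusted p = 0.00332 by limma), and none fell. Of 13 genes of the COPI coat, which carries vesicles back to the ER, *ARFGAP3*, which acts on the ARF1 GTPase, rose by 0.36 (adjusted p = 0.0422 by limma), and none fell. The counts of 1 of 14, 1 of 12 and 1 of 13 are close to the share of 5.89% over all genes. The medians of these 4 lists were 0.05, 0.04, 0.06 and 0.07, near that of the COPII genes (0.08). The overexpression effect minus the knockdown effect passed for *ERGIC1* (0.83), *KLHL12* (0.57) and *BET1* (−0.49), with adjusted p of 4.5e-06, 0.0151 and 0.016 by limma.

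**Figure D4:**
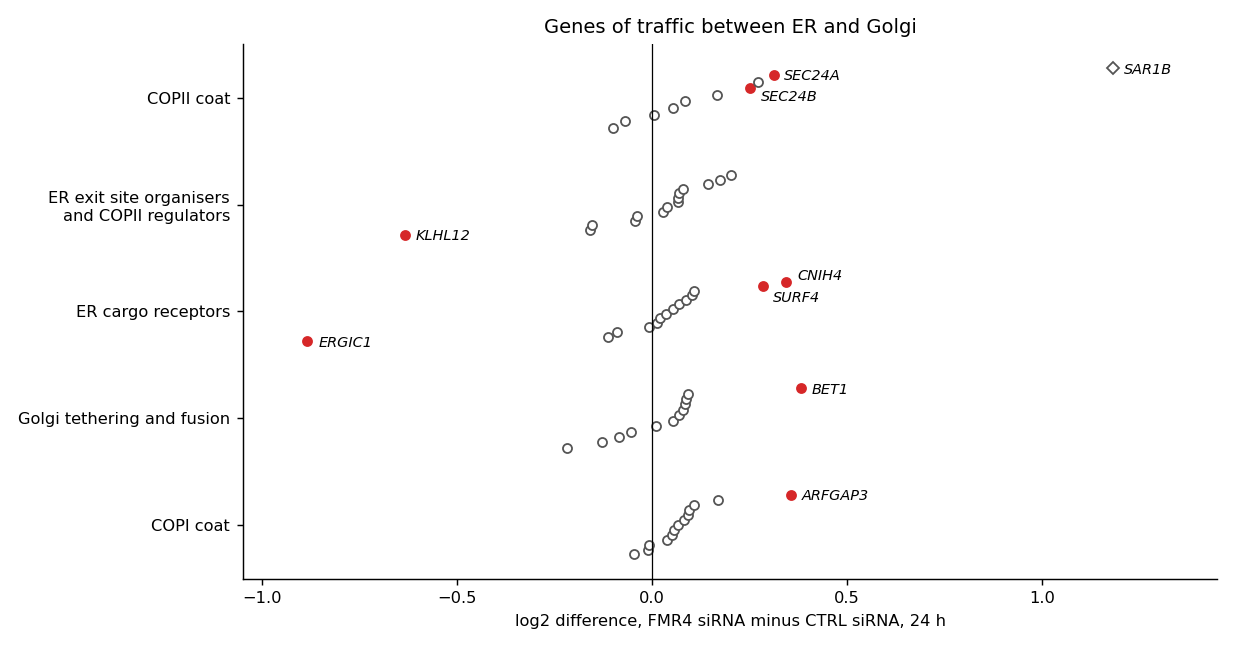
Log2 differences, FMR4 siRNA minus CTRL siRNA at 24 h (horizontal axis), for the COPII genes and 4 lists of genes that act with them, 1 point per gene. Filled points passed the limma test at an adjusted p under 0.05, and *SAR1B*, an open diamond at 1.18, was not tested.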

How the data were processed

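Expression was measured on 24 arrays in HEK293T cells. The authors subtracted background and applied GC-RMA (Command Console and Bioconductor, versions not given in the sources used here), and deposited log2 values. They lie between 2.62 and 14.5 and were taken as deposited, and the number of arrays limits the precision. Of 33297 probe sets, 12083 have no gene in the platform annotation and were left out, and 1754 with several symbols were tested but not counted as genes. RefSeq names updated 27 symbols. For the 788 genes with several probe sets, the one of highest mean was used. Each condition was given 1 mean in limma 3.58.1 (R 4.3.3), leaving 16 residual degrees of freedom. Tests were two-sided. Checked on simulated data for the knockdown at 24 h, over 21214 probe sets, the fit recovered 26.9% of 67 genes changed by 0.25 on the log2 scale, 85.1% of 67 changed by 0.5 and 98.5% of 66 changed by 1. The simulation changed these genes only and drew noise independently for each probe set. The rates need not hold for the measured knockdown, where 1083 genes were called.

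The members and the gene lists were chosen with earlier results of these data known. All 10 members are named, with the genes of each other list that pass the test in the knockdown at 24 h. For the exit site, cargo receptor and COPI lists, those that pass in the time comparisons are also named. The 5 genes most like *SAR1B* are named as well. The difference in time effects between siRNA and plasmid and the neighbours of *SAR1B* were added after values were seen. Same-number arrays correlated between −0.37 and 0.46 in their deviations from condition means, and in none of 10 comparisons were all 3 pairs over 0.1, so numbers were not taken as pairs. Alternatives were fits to fewer arrays, trend and robust moderation, array weights, a replicate block, a filter on dim probe sets, array centring on the median, testing of all probe sets, quantile normalization, averaging of a gene's probe sets, and each array left out. Python 3.11.15 with matplotlib 3.10.9 was used for plotting.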

Additional observations from a re-analysis of the deposited data

Results flagged for a closer look

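The change from 6 to 24 h differed between siRNA and plasmid transfection in 5 of the 9 tested members, by a limma test of that difference which was added after the values had been seen. The change with siRNA exceeded that with plasmid by 0.95 for *SEC24D*, 0.32 for *SEC24C*, 0.23 for *SEC23A*, 0.22 for *SEC23B* and 0.17 for *SEC31A*, on the log2 scale. That of *SEC31A* was lost with all probe sets tested (adjusted p = 0.0522), with a replicate block (adjusted p = 0.0671) and in 16 of the 24 fits that left out 1 array (adjusted p of up to 0.0808). Nucleic acid, dose and transfection reagent cannot be told apart in this difference. It was not particular to the coat, as it also passed for 6 of 12 genes of tethering and fusion at the Golgi.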

How the results depend on the processing

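Counts of members called moved by more than 1.5 times in these cases, and the cause was not tested. With only the 6 arrays compared, the knockdown at 24 h called 0 members in place of 2 (adjusted p = 0.0843 for *SEC24A* and 0.0734 for *SEC24B* by limma), the time change 3 in place of 5 with CTRL siRNA, 1 in place of 4 with FMR4 siRNA, 1 in place of 0 with CTRL pcDNA3.1 and 2 in place of 0 with FMR4 pcDNA3.1, and the controls at 6 h 2 in place of 1. With array weights, the time change with each plasmid called 3 in place of 0, the controls 5 in place of 3 at 24 h and 4 in place of 1 at 6 h, and the knockdown effect between times and the effect between arms 1 each in place of 0. Trend and robust moderation gave 2 for the controls at 6 h and 1 for the effect between arms. Median centring gave 1 for the time change with CTRL pcDNA3.1. The controls at 6 h gave 0 with the 12 arrays of that time and 0 with all probe sets.

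Arrays with the same number were not shown to be pairs. The replicate block lowered the time change with CTRL siRNA to 2 members and the controls at 6 h to 0 (the calls lost were those of *SEC23B*, *SEC24B* and *SEC31A*, with adjusted p of 0.072, 0.223 and 0.192 by limma, and of *SEC24A*, 0.0564), and moved no other count by over 1.5 times. With 1 array left out, the counts ran from 0 to 3 for the knockdown at 24 h (1 without the second CTRL siRNA array and 0 without the second FMR4 siRNA array), 0 to 1 at 6 h, 3 to 4 for the time change with CTRL siRNA, 3 to 6 with FMR4 siRNA, 2 to 3 for the controls at 24 h and 0 to 0 at 6 h. They ran from 0 to 1 for the knockdown effect between times, 0 to 1 for the effect between arms and 4 to 6 for the time effect between siRNA and plasmid. The 1 call at 6 h of knockdown, and that between times, came without the third FMR4 siRNA array at 6 h, and that between arms without the third FMR4 siRNA array at 24 h. No result reversed under the alternatives run. Of the single-gene values under the other settings, 185 kept their call or value and 16 lost the call, and with 1 array left out 184 did and 38 did not. Fits to the 12 arrays of a time were not run for comparisons across times, nor fits to 6 arrays for differences of effects.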

Other observations

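Other genes of ER exit also changed over time after siRNA transfection, some upward and some downward. *PREB*, the exchange factor that loads SAR1 with GTP, rose from 6 to 24 h by 0.36 in CTRL siRNA cells and 0.54 in FMR4 siRNA cells (adjusted p = 0.0103 and 0.000568 by limma), and differed by −0.12 and −0.08 with the plasmids. *MIA3*, which helps export collagen, rose by 0.36 and 0.37 (adjusted p = 0.000938 and 0.000912), and *CREB3L2*, a membrane-bound factor that activates COPII genes, by 0.41 and 0.37 (adjusted p = 0.00163 and 0.00322). *SEC16A*, the scaffold of exit sites, rose with FMR4 siRNA, by 0.36 (adjusted p = 0.000998), and differed by 0.15 with CTRL siRNA. *PEF1*, a partner of ALG2 in the ubiquitylation of SEC31, rose by 0.20 and 0.21 (adjusted p = 0.0326 and 0.0302). *KLHL12* rose with CTRL siRNA, by 0.31 (adjusted p = 0.0187), and differed by −0.18 with FMR4 siRNA. *CREB3L1*, a relative of *CREB3L2*, fell with CTRL siRNA, with a difference of −0.57 (adjusted p = 0.00277) that exceeded each rise in the list in size, and differed by −0.24 with FMR4 siRNA (adjusted p = 0.205).

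Of the 14 exit site genes, 5 rose and 1 fell over time with CTRL siRNA, against 18.6% of all genes called. With FMR4 siRNA 5 rose, against 16.7% of all genes. None was called with CTRL pcDNA3.1 or FMR4 pcDNA3.1, against 5.76% and 6.33% of all genes. There 1 and 2 had an unadjusted p under 0.05 by limma, against 20.1% and 20.3% of all genes. Of the 13 COPI genes, 3 rose in CTRL siRNA cells, 7 in FMR4 siRNA cells and 1 with each plasmid. The counts of 3 and 1 are close to the shares of all genes in the same comparisons. *COPA*, *GBF1* and *ARFGAP2* rose in both siRNA groups, by 0.24, 0.17 and 0.29 in CTRL siRNA cells and by 0.36, 0.26 and 0.36 in FMR4 siRNA cells. *COPG1*, *COPZ1*, *ARFGAP1* and *ARFGAP3* rose in FMR4 siRNA cells, by 0.25, 0.18, 0.19 and 0.31. *COPZ2* rose with CTRL pcDNA3.1 and FMR4 pcDNA3.1, by 0.38 and 0.32. Of the 14 ER cargo receptors, *TMED2* rose by 0.14 with CTRL siRNA. *SURF4*, *CNIH1* and *CNIH4* fell, with differences of −0.35, −0.29 and −0.52. With FMR4 siRNA *TMED2*, *TMED10* and *SCAP* rose by 0.19, 0.18 and 0.22, and *ERGIC1* fell (−0.50). With CTRL pcDNA3.1 *CNIH1* fell (−0.22). Of the 12 genes of tethering and fusion at the Golgi, 3 rose with CTRL siRNA and 4 with FMR4 siRNA, with none lower and none called with plasmid. The shares over all genes are those given above.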
